A study of Mus musculus with 4 samples.

Results

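Cells recognise viral and misplaced endogenous RNA through a small set of sensors, and 34 genes of that system were followed here in testes of mice with a conditional knockout of Dis3. They were chosen by name, as sensors of RNA, the factors that relay their signal, and the effectors that interferon induces, and all 34 were found among the 54232 genes of the count table. DIS3 is a catalytic ribonuclease of the RNA exosome, which degrades nuclear RNA from its 3′ end. The KO group was a conditional knockout of Dis3 (2 libraries) and the WT group was Dis3 WT (2 libraries). Both were whole testes of mice labelled B6D2F1 inbred aged 17 postnatal days, when the first wave of germ cells is in meiotic prophase. The promoter or Cre line behind the deletion, and the cells in which it acted, are named by no source used here, nor is it said whether replicate libraries came from separate animals. P-values therefore measure the spread between these libraries, which may be technical.

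The cytoplasmic helicases RIG-I (Ddx58) and MDA5 (Ifih1) bind double-stranded RNA and signal through the mitochondrial adaptor MAVS to IRF3 and IRF7, which switch on interferon genes. TLR3 senses double-stranded RNA in endosomes, and PKR (Eif2ak2) binds it and shuts down translation. Secreted interferon acts through its receptor and the ISGF3 complex, of which STAT2 and IRF9 are subunits, on genes that carry an interferon-stimulated response element (ISRE) near their start. Many of these genes encode sensors and effectors, so the same promoter element recurs through the pathway.

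The core of that element, GAAA followed by any 2 bases and a second GAAA, was searched on both strands in RefSeq promoter sequences (build GRCm38.p6, 250 bases before to 50 bases after each start site, 300 bases in all). Matches that overlap each other were counted separately. Of the 34 genes 27 had a promoter in the RefSeq table, and 13 of these 27 (48.1%) held the core, against 1079 of 27025 genes with a promoter (3.99%). A match is a description of letters and does not show that a factor binds there. The 7 promoters below are shown because they carry the core in genes whose RNA was called higher, lower or neither in KO testes. Letters run 5′ to 3′ on the strand of the gene, and capitals mark the matches. Ddx58, Ifih1, Eif2ak2 and Ifitm3 were called higher in KO testes, Isg15 and Ifit1 were not called, and Bst2 was called lower. The Ddx58 promoter is chr4:40239776-40240075 on the minus strand, that of Ifih1 chr2:62646206-62646505 on the minus strand, that of Eif2ak2 chr17:78882523-78882822 on the minus strand, and that of Ifitm3 chr7:141010695-141010994 on the minus strand. The Isg15 promoter is chr4:156200769-156201068 on the minus strand, that of Ifit1 chr19:34640639-34640938 on the plus strand, and that of Bst2 chr8:71537423-71537722 on the minus strand.
Ddx58: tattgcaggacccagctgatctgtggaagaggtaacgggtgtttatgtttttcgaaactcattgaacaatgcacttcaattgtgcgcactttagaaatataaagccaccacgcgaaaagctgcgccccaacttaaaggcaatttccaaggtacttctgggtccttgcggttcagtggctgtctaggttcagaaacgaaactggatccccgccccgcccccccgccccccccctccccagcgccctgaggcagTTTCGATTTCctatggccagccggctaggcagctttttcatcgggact
Ifih1: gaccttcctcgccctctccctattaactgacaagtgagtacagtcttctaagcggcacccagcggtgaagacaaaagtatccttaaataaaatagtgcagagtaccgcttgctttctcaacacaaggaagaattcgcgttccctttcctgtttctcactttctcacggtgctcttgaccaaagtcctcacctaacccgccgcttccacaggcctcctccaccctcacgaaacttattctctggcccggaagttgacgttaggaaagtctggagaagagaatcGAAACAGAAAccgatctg
Eif2ak2: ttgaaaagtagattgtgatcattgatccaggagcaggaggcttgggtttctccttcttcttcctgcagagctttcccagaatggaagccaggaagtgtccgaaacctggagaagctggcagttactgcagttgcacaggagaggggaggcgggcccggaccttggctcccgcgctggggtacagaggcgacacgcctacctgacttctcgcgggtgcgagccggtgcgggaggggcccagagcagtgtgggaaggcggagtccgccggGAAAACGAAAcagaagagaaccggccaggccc
Ifitm3: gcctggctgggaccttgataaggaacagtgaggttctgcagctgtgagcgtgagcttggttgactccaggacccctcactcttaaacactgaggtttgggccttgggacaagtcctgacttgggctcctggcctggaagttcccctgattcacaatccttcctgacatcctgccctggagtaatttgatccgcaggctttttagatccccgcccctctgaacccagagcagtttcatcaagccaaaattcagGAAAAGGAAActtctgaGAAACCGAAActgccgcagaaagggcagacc
Isg15: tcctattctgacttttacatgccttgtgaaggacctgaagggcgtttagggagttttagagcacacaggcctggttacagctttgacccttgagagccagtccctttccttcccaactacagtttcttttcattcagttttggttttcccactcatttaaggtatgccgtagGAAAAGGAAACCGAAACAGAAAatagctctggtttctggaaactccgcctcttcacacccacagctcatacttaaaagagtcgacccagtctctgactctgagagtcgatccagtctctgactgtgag
Ifit1: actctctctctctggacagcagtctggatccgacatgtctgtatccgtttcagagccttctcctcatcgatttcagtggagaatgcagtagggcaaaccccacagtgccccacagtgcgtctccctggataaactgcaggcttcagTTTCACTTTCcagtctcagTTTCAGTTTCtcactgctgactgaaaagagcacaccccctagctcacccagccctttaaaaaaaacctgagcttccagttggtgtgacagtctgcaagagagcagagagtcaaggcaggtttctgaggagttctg
Bst2: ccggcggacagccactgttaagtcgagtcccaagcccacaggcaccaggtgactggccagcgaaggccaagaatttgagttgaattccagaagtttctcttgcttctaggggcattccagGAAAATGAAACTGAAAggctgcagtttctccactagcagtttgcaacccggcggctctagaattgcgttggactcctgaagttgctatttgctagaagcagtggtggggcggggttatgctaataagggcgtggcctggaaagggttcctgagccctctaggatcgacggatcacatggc

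In Ddx58, Ifih1, Eif2ak2 and Ifitm3 the core lay after the RefSeq start site, while in Isg15, Ifit1 and Bst2 it lay before it. Ifitm3 held 2 separate matches and Isg15 held 3 that overlap, while Ifit1 held 2 separate matches and Bst2 held 2 that overlap. By outcome in the testis, the core was present in 4 of 7 promoters of genes called higher (57.1%), in 1 of 2 of genes called lower (50%) and in 8 of 18 of genes not called (44.4%). The numbers are too small for a comparison. The promoters of Tlr3, Irf9, Ifit2 and Irf3, all called in one direction or the other, held no copy of these letters within the window. Among 45 promoters of other interferon-stimulated genes, 20 held the core (44.4%).

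Libraries held 17663416 and 19255782 gene reads in KO replicates 1 and 2, against 31031920 and 40329170 in WT replicates 1 and 2. Values below are raw reads, or reads per 1000000 of the TMM-scaled library size (CPM), and gene positions are those of the count table on GRCm38. A gene is called where its adjusted p is under 0.05 (edgeR quasi-likelihood test, Benjamini-Hochberg over 25076 tested genes), and a log2 fold change is KO over WT with its standard error (SE). Dis3 itself had 39.4 and 42.8 CPM in KO libraries and 80.0 and 80.4 CPM in WT libraries, a log2 fold change of -0.96 ± 0.07 (edgeR adjusted p = 2.335e-09). KO libraries also carried more reads spread over unexpressed sequence, 3.01 and 3.39 reads per kilobase against 2.70 and 2.53 in WT libraries despite their smaller size. This background came to 2.12% and 2.18% of gene reads in KO libraries and to 1.08% and 0.777% in WT libraries. It bears on genes with few reads. The 16633 tested genes with at least 5 times the background expected for their length had a median log2 fold change of -0.12, and the other 8443 had a median of 0.74.

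All 34 genes passed the filter on low counts, and the set moved little as a whole. In KO testes 8 were called higher (23.5%, against 11.6% of all tested genes) and 3 lower (8.82%, against 20.3%), while 23 were not called. Their median log2 fold change was 0.16, compared with 0.05 over all tested genes. Scaling the libraries to Sertoli cell genes lowered every log2 fold change by about 0.12 and gave 3 of the 34 higher and 3 lower, with 1901 of all tested genes higher and 7077 lower in place of 2906 and 5092. Oasl2, Isg15, Mx2, Xaf1, Ifi27, Adar and Samhd1 then had negative values. DESeq2 and a fit without the filter on low counts likewise called 3 higher, and Ddx58, Oas2 and Ifit2 were those 3 in each case. Of all tested genes, DESeq2 called 1008 of 19242 higher and the fit without the filter 1937 of 48489. A filter of 1 CPM in 2 libraries gave 11 higher and 2 lower, with 3323 higher and 4259 lower of all 18399 genes then tested. Subtracting the background with TMM computed anew gave 12 higher and 2 lower, with 2495 higher and 3407 lower of all 20101 genes then tested. Both KO libraries lay above both WT libraries in CPM for 17 of the 34, where 35.6% of all tested genes did so, and below for 3, where 32.7% did so. Summed over all 34, expression was 672 and 644 CPM in KO libraries and 622 and 630 CPM in WT libraries. In RNA of whole testis, fewer cells of a type and less RNA per cell cannot be told apart. The level therefore also follows the mixture of cells: the summed markers of pachytene spermatocytes were 4519 and 4054 CPM in KO libraries and 6842 and 7097 CPM in WT libraries.

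Restricting the comparison to genes well above background left 28 of the 34. Of these, 7 were called higher, against 8.43% of all such genes, and 3 lower, against 30.5%, and their median log2 fold change was 0.13. KO libraries lay wholly above WT libraries for 14 of the 28 (as did 22.3% of all such genes) and wholly below for 3 (as did 47.7%). The remaining 6, Zbp1, Oas1a, Oas2, Oas3, Mx1 and Mx2, had a median of 0.61, and of them Oas2 was called higher. Zbp1, Oas2, Oas3 and Mx1 lay between 1.03 and 4.09 times background in every library for its length.

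**Figure D1:**
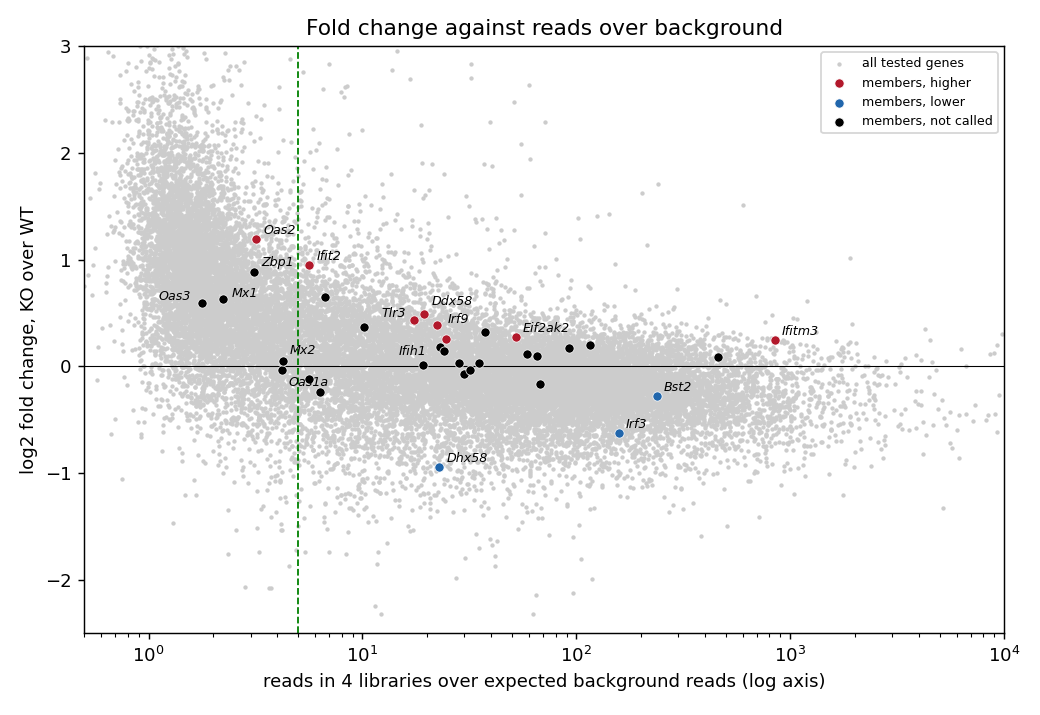
Log2 fold change (KO over WT, vertical axis) against reads in the 4 libraries divided by the background expected for the gene's length (horizontal log axis), for 25043 tested genes with an expected background in grey, of which 94 lie beyond the axes, and for the 34 genes in colour. The dashed line marks 5 times background. Left of it the grey cloud sits well above 0 (median 0.74 for all genes under the line), and Oas2, Zbp1, Oas3 and Mx1 lie within it.

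Among the levels, set on CPM per kilobase of exon so that genes can be compared, Ifitm3 stood highest with 102 in KO and 86.0 in WT testes. Ifi27 followed with 52.1 in KO and 49.1 in WT, then Bst2 with 22.8 in KO and 27.8 in WT. All are effectors. The least abundant was Oas3, with 0.243 CPM per kilobase in KO and 0.162 in WT testes.

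**Figure D2:**
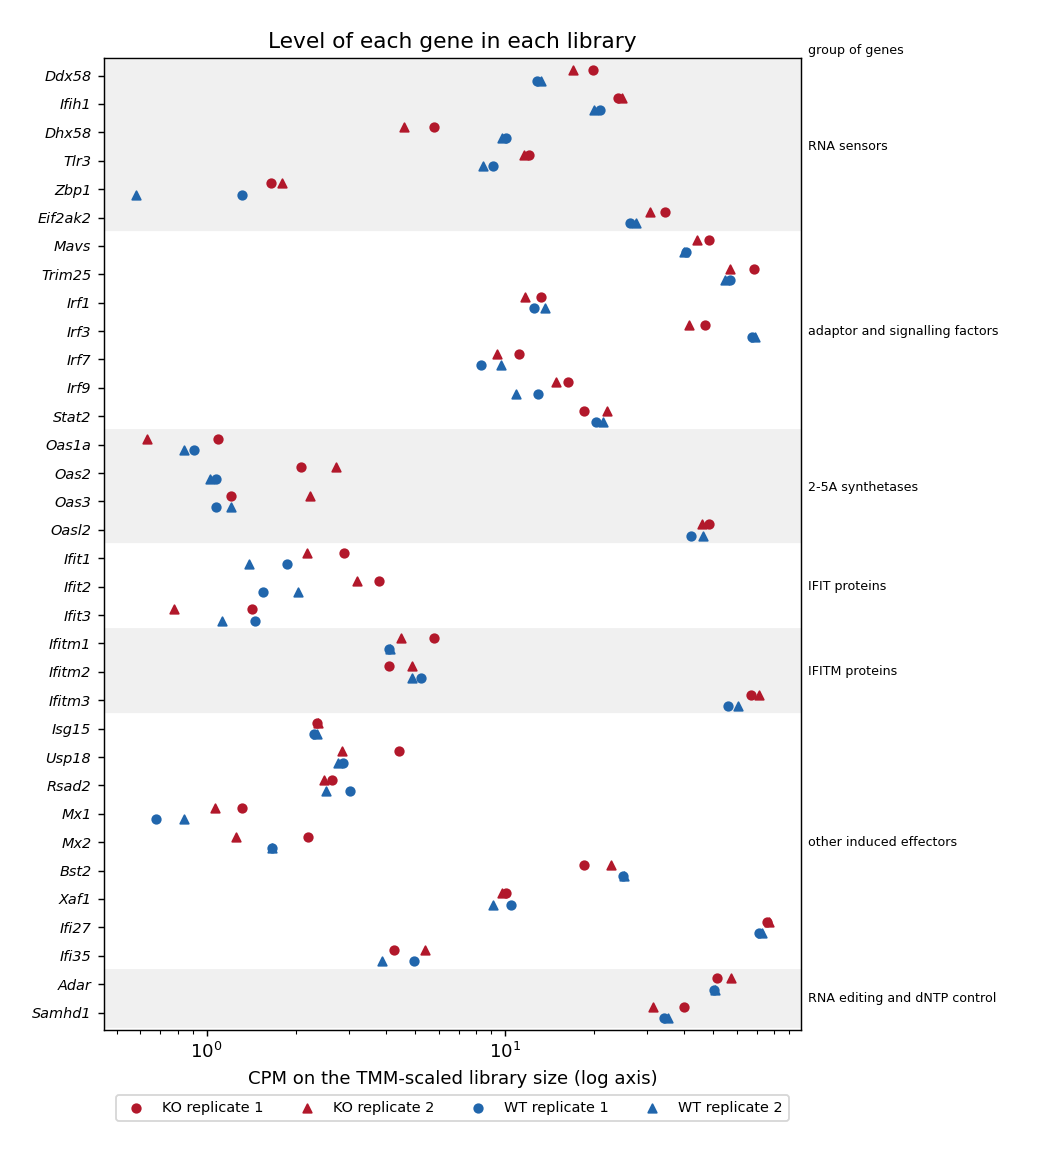
CPM of each of the 34 genes in each library on a log axis, with KO libraries in red above WT libraries in blue and the genes grouped by role. Levels range from under 1 CPM for Zbp1, Oas1a, Ifit3 and Mx1 in some libraries to 77.1 CPM for Ifi27, and the red symbols of Dhx58 and Irf3 lie wholly left of the blue ones.

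Of 6 RNA sensors 4 were called higher in KO testes (66.7%, against 11.6% of all tested genes) and 1 lower (16.7%, against 20.3%), with a median log2 fold change of 0.35. With DESeq2, with Sertoli scaling or without the filter on low counts, Ddx58 was the 1 sensor called higher, and in DESeq2 the adjusted p was 0.0860 for Tlr3, 0.117 for Eif2ak2 and 0.180 for Ifih1. Summed over the 6, sensors reached 97.7 and 90.5 CPM in KO libraries and 80.5 and 79.7 CPM in WT libraries.

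Ddx58, which encodes RIG-I, the sensor of 5′-triphosphate RNA (chromosome 4, 40203773 to 40239828), had 19.8 and 17.0 CPM in KO libraries and 12.9 and 13.2 CPM in WT libraries. Both KO libraries were above both WT libraries, with 362 and 351 reads in KO against 381 and 503 in WT. On the log2 scale the fold change was 0.49 ± 0.12 (SE; edgeR adjusted p = 0.00215). Leaving out KO replicate 1 ended the call (edgeR adjusted p = 0.0583), and the gene was called in the other 12 of 13 alternative analyses.

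Tlr3, the endosomal receptor of double-stranded RNA (chromosome 8, 45395665 to 45411080), had 12.1 and 11.6 CPM in KO libraries and 9.11 and 8.47 CPM in WT libraries. The groups did not overlap. Tlr3 had a log2 fold change of 0.43 ± 0.13 (edgeR adjusted p = 0.0166), and the call was lost without KO replicate 1 (0.0980), KO replicate 2 (0.0697) or WT replicate 2 (0.135).

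Eif2ak2, the gene of the kinase PKR, which halts translation on binding double-stranded RNA (chromosome 17, 78852564 to 78882573), had 34.4 and 30.8 CPM in KO libraries and 26.2 and 27.7 CPM in WT libraries. It was the most abundant of the sensors per kilobase (6.38 CPM per kilobase in KO and 5.27 in WT testes), with every KO library above every WT library. Its log2 fold change was 0.27 ± 0.09 (edgeR adjusted p = 0.0252), and the call was lost without KO replicate 1 (0.318), WT replicate 1 (0.203) or WT replicate 2 (0.0634).

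Ifih1, which encodes MDA5, the sensor of long double-stranded RNA (chromosome 2, 62595798 to 62646255), had 23.9 and 24.8 CPM in KO libraries and 20.8 and 20.0 CPM in WT libraries. KO libraries lay above WT libraries by a small margin. Its log2 fold change of 0.26 ± 0.10 was close to the threshold (edgeR adjusted p = 0.0463), and leaving out any 1 of the 4 libraries ended the call (0.124 to 0.361).

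Dhx58 went the other way. It encodes LGP2, the third helicase of the RIG-I family, which lacks the signalling domains of the other two and modulates them (chromosome 11, 100694884 to 100704271). It had 5.80 and 4.60 CPM in KO libraries and 10.1 and 9.81 CPM in WT libraries, so that both KO libraries were far below both WT libraries. The log2 fold change was -0.94 ± 0.16 (edgeR adjusted p = 8.193e-05), and Dhx58 was called lower in all 13 alternative analyses, with values between -1.14 and -0.83. The 3 helicases of 1 family therefore did not move together.

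Zbp1, a sensor of Z-form nucleic acids that can trigger necroptosis, was rare. It had 1.64 and 1.79 CPM in KO libraries and 1.32 and 0.578 CPM in WT libraries, from 30 and 37 reads in KO and 39 and 22 reads in WT. The log2 fold change of 0.89 ± 0.40 was not called (edgeR adjusted p = 0.0923). It was 1.52 and called without WT replicate 1 (0.00652), and 0.37 and not called without WT replicate 2 (0.555). Zbp1 was also called with the filter of 1 CPM (0.0473) and with the replicate block (0.0474).

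Among 7 adaptor and signalling factors 1 was called higher and 1 lower (14.3% each), with a median log2 fold change of 0.17. Both shares are near those of all tested genes, 11.6% and 20.3%. The gene called higher, Irf9, acts downstream of secreted interferon, and the gene called lower was Irf3. Summed, the 7 genes had 223 and 201 CPM in KO libraries and 219 and 219 CPM in WT libraries, which overlap.

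Irf3, the transcription factor that the MAVS and TLR3 pathways phosphorylate (chromosome 7, 44997648 to 45002848), had 47.0 and 41.5 CPM in KO libraries and 67.6 and 68.9 CPM in WT libraries. It was well expressed, at 158 times background, and KO libraries were clearly below WT libraries. Irf3 had a log2 fold change of -0.63 ± 0.08 (edgeR adjusted p = 1.169e-06), called in all 13 alternatives with values between -0.75 and -0.51.

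Irf9, the DNA-binding subunit of ISGF3 (chromosome 14, 55603571 to 55610030), had 16.3 and 14.8 CPM in KO libraries and 12.9 and 10.9 CPM in WT libraries, with no overlap between the groups. The log2 fold change was 0.39 ± 0.13 (edgeR adjusted p = 0.0202). Without KO replicate 1 (0.159) or WT replicate 2 (0.265) it was not called.

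Mavs, the adaptor on the mitochondrial membrane, had 48.4 and 44.3 CPM in KO libraries and 40.6 and 40.1 CPM in WT libraries, and missed the threshold (log2 fold change 0.20 ± 0.08, edgeR adjusted p = 0.0574). It was called in 4 of 13 alternatives, with the filter of 1 CPM (0.00827), among genes at 5 times background or more tested alone (0.0463), with the replicate block (0.0421) and with the background subtracted and TMM computed anew (0.00486). Trim25, the ubiquitin ligase that activates RIG-I, had 68.8 and 57.2 CPM in KO libraries and 56.9 and 54.6 CPM in WT libraries (0.17 ± 0.08, edgeR adjusted p = 0.101). It was called with the filter of 1 CPM (0.0143), with the background subtracted and TMM computed anew (0.0121) and without KO replicate 2 (0.0223). In both Mavs and Trim25 the KO libraries were above the WT libraries. Irf7, which amplifies interferon production, had 11.2 and 9.39 CPM in KO and 8.30 and 9.75 CPM in WT libraries. Irf1 and Stat2 had log2 fold changes of -0.07 and -0.03. In Irf7, Irf1 and Stat2 the groups overlapped, and none was called.

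**Figure D3:**
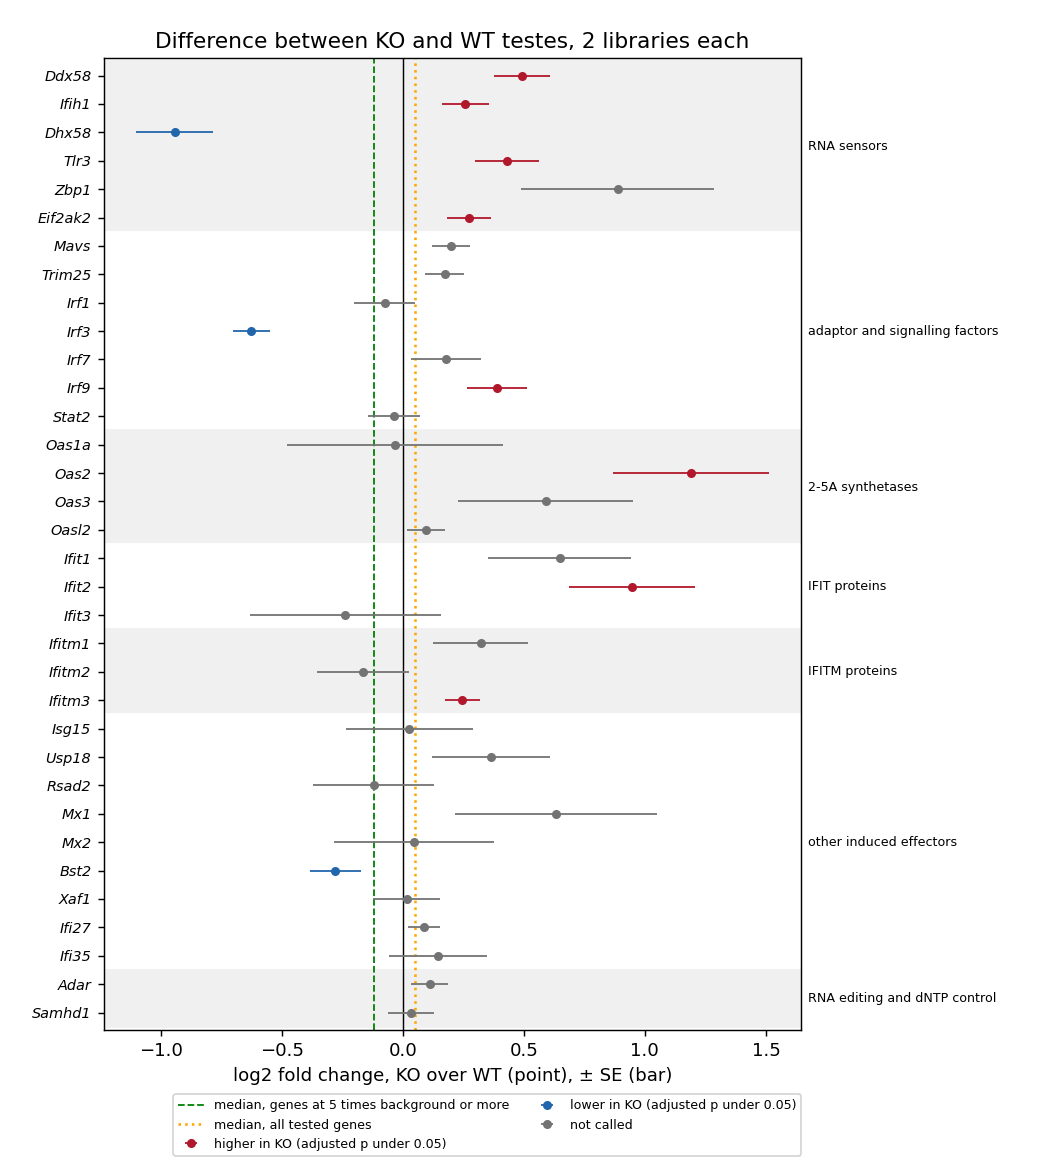
Log2 fold change of each of the 34 genes (point, KO over WT) with its standard error (bar), grouped by role, where red marks genes called higher in KO testes, blue genes called lower and grey genes not called. The dotted and dashed lines mark the medians of all tested genes (0.05) and of genes at 5 times background or more (-0.12). Dhx58 and Irf3 lie farthest to the left at -0.94 and -0.63, and Oas2, under 5 times background, farthest to the right at 1.19.

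The 2-5A synthetases make 2′-5′-linked oligoadenylate on binding double-stranded RNA. Of their 4 genes 1 was called higher (25.0%, against 11.6% of all tested genes) and none lower (against 20.3%). Oas2 (chromosome 5, 120730333 to 120749853) had 38 and 56 reads in KO libraries and 32 and 39 in WT libraries, or 2.08 and 2.71 CPM in KO and 1.08 and 1.03 CPM in WT. Background expected for its length was 13.4 and 15.1 reads in KO libraries and 12 and 11.3 in WT libraries. This made a log2 fold change of 1.19 ± 0.32 (edgeR adjusted p = 0.00685), and without KO replicate 2 the call was lost (0.139). Oasl2, a family member with 7.42 CPM per kilobase in KO and 6.93 in WT testes against 0.538 and 0.236 for Oas2, had 48.5 and 46.0 CPM in KO libraries and 42.1 and 46.2 CPM in WT libraries. The groups overlapped, and it was not called (0.10 ± 0.08, edgeR adjusted p = 0.368). Oas1a and Oas3 had log2 fold changes of -0.03 and 0.59, were not called and were close to background.

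The IFIT proteins bind foreign or uncapped RNA and block its translation. Of their 3 genes 1 was called higher (33.3%, against 11.6% of all tested genes) and none lower (against 20.3%). Ifit2 (chromosome 19, 34550694 to 34576419) had 69 and 66 reads in KO libraries and 46 and 77 in WT libraries, or 3.77 and 3.20 CPM in KO and 1.55 and 2.02 CPM in WT. The groups did not overlap in CPM, and the log2 fold change was 0.95 ± 0.26 (edgeR adjusted p = 0.00747). At 5.64 times background it lay just above the limit of 5, and without KO replicate 1 (0.0664) or WT replicate 1 (0.0504) it was not called. Ifit1, which recognises the cap structure of foreign RNA, had 2.90 and 2.18 CPM in KO and 1.86 and 1.39 CPM in WT libraries (0.65 ± 0.30, edgeR adjusted p = 0.0959). Ifit3 had 1.42 and 0.775 CPM in KO and 1.45 and 1.13 CPM in WT libraries, a log2 fold change of -0.24 ± 0.39 that was not called.

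The IFITM proteins sit in membranes and hinder virus entry. Of their 3 genes 1 was called higher (33.3%, against 11.6% of all tested genes) and none lower (against 20.3%). Ifitm3 (chromosome 7, 141009586 to 141010770) had 67.0 and 71.4 CPM in KO libraries and 55.9 and 60.7 CPM in WT libraries. It stood 845 times above background, with KO libraries above WT libraries and a log2 fold change of 0.25 ± 0.07 (edgeR adjusted p = 0.0117). The call was lost without KO replicate 2 (0.253) or WT replicate 1 (0.235). Ifitm1 had 5.80 and 4.5 CPM in KO libraries and 4.08 and 4.13 CPM in WT libraries and was not called (0.32 ± 0.20). Ifitm2 had 4.10 and 4.89 CPM in KO libraries and 5.23 and 4.89 CPM in WT libraries, with a log2 fold change of -0.16 ± 0.19 (edgeR adjusted p = 0.533). Of the exon bases of Ifitm2, 40.9% are shared with another annotated gene on the same strand, Gm45717, so its count is uncertain.

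Of 9 other induced effectors, which include the genes most often used as a readout of interferon, none was called higher by edgeR as reported or by DESeq2, and none was higher at an unadjusted p under 0.05 in edgeR. Bst2 was called lower by edgeR and not by DESeq2, and Ifi27 was called higher with the background subtracted and TMM computed anew. The median log2 fold change was 0.05, and of all tested genes 11.6% were called higher and 20.3% lower. Isg15, the ubiquitin-like modifier, had 43 and 49 reads in KO libraries and 68 and 89 in WT libraries, or 2.35 and 2.37 CPM in KO and 2.29 and 2.34 CPM in WT. The log2 fold change was 0.03 ± 0.26 (edgeR adjusted p = 0.947). Rsad2, the gene of viperin, had a log2 fold change of -0.12 ± 0.25, and Usp18, which removes ISG15 and damps interferon signalling, had 0.36 ± 0.24. The dynamin-like GTPases Mx1 and Mx2 had 0.63 ± 0.42 and 0.05 ± 0.33 at 2.22 and 4.23 times background. None of these was called.

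Ifi27, a small mitochondrial protein gene, had 75.8 and 77.1 CPM in KO libraries and 71.2 and 72.8 CPM in WT libraries. KO libraries were above WT libraries and the difference was not called (0.09 ± 0.07, edgeR adjusted p = 0.331). With the background subtracted and TMM computed anew it was 0.22 and called (edgeR adjusted p = 0.0159). Xaf1, a proapoptotic gene, and Ifi35 had log2 fold changes of 0.02 and 0.14 and overlapping groups. Bst2, which encodes tetherin, a membrane protein that holds budding virus (chromosome 8, 71534255 to 71537456), was the effector called lower. It had 18.5 and 22.7 CPM in KO libraries and 25.0 and 25.2 CPM in WT libraries, with the lowest value in KO replicate 1. Bst2 had a log2 fold change of -0.28 ± 0.10 (edgeR adjusted p = 0.0447), and the call was lost without KO replicate 1 (0.371) or WT replicate 2 (0.104). It was also lost with DESeq2 (0.105), with the filter of 1 CPM (0.107) and with the background subtracted and TMM computed anew, where the log2 fold change was -0.15 (0.325).

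ADAR edits adenosine in double-stranded RNA and so keeps endogenous duplexes from activating MDA5 and PKR. Adar had 51.6 and 57.6 CPM in KO libraries and 50.4 and 50.7 CPM in WT libraries and was not called (0.11 ± 0.08, edgeR adjusted p = 0.266), though with the background subtracted and TMM computed anew it was 0.23 and called (0.0339). Samhd1, a phosphohydrolase of deoxynucleotides, had 40.0 and 31.5 CPM in KO libraries and 34.2 and 35.4 CPM in WT libraries, with WT libraries between the KO libraries (0.03 ± 0.10).

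**Figure D4:**
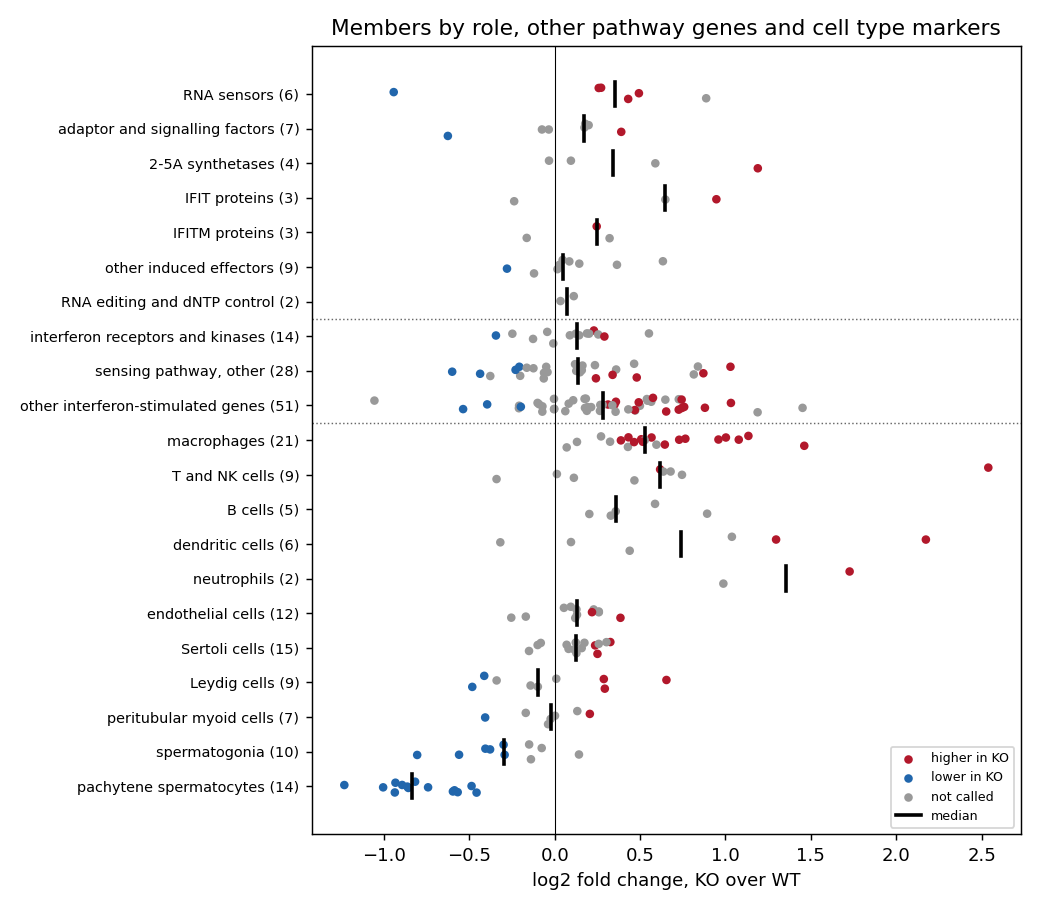
Log2 fold change (KO over WT) of every tested gene, one point each, in the 34 genes by role (top block), other genes of the pathway (middle) and markers of testis and blood cell types (bottom), with red for called higher, blue for called lower, grey for not called, a bar for the median and the number tested in brackets. Medians are 0.35 for sensors, 0.34 for 2-5A synthetases, 0.65 for IFIT genes, 0.25 for IFITM genes and 0.05 for other induced effectors. Macrophage markers sit to the right (0.53) and pachytene markers to the left (-0.84).

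The interferon genes themselves were at the level of background. None of 21 type I, II and III interferon genes passed the filter on low counts, and no library held more than 9 reads for any of them. Together they had 45 and 66 reads in KO libraries, where 48.6 and 54.7 were expected from background, and 55 and 57 reads in WT libraries, where 43.6 and 40.8 were expected. Expression of interferon was not detectable at this depth in either genotype.

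Downstream of interferon, 2 of 14 receptor and kinase genes were called higher (14.3%) and 1 lower (7.14%), against 11.6% and 20.3% of all tested genes, with a median log2 fold change of 0.13. Ifngr2, a chain of the receptor for interferon gamma, had 136 and 137 CPM in KO libraries and 109 and 114 CPM in WT libraries (0.29 ± 0.06, edgeR adjusted p = 0.000718). Tyk2, a kinase bound to the type I interferon receptor, had 26.9 and 25.5 CPM in KO libraries and 34.4 and 32.1 CPM in WT libraries (-0.34 ± 0.09, edgeR adjusted p = 0.00495). Ptpn11, the phosphatase SHP2, was called higher at 0.23 ± 0.07. In each of the 3 genes the groups did not overlap.

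Of 28 further genes of nucleic acid sensing 5 were called higher (17.9%) and 4 lower (14.3%), with a median of 0.14. Both shares are near those of all tested genes, 11.6% and 20.3%. Tlr7, the endosomal receptor of single-stranded RNA used by plasmacytoid dendritic cells and macrophages, had 6.95 and 6.05 CPM in KO libraries and 2.93 and 3.39 CPM in WT libraries (1.03 ± 0.19, edgeR adjusted p = 0.000253). Tarbp2, a double-stranded RNA binding partner of Dicer that also inhibits PKR, had 14.7 and 13.8 CPM in KO libraries and 21.6 and 21.6 CPM in WT libraries (-0.60 ± 0.11, edgeR adjusted p = 0.000135). The ubiquitin ligase gene Trim56 and the repressor Irf2 were called higher at 0.48 ± 0.10 and 0.34 ± 0.08.

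Among 55 other interferon-stimulated genes 51 were tested, with a median log2 fold change of 0.28. Of these, 13 were called higher (25.5%, against 11.6% of all tested genes) and 3 lower (5.88%, against 20.3%). Of the 55 genes 15 lay under 5 times background, a range in which 17.8% of all tested genes were called higher. Slfn5 had 19.7 and 19.9 CPM in KO libraries and 11.7 and 11.7 CPM in WT libraries (0.76 ± 0.11, edgeR adjusted p = 1.406e-05). Lgals3bp was also called higher, at 0.47 ± 0.08. Parp12, an ADP-ribosyltransferase, had 124 and 114 CPM in KO libraries and 161 and 184 CPM in WT libraries (-0.54 ± 0.07, edgeR adjusted p = 2.532e-06). These 3 lists, like the 34 genes, were drawn up with earlier results of these data known and give no independent support to a direction.

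Many sensors and effectors are expressed by macrophages and other immune cells. Of 21 macrophage markers 14 were called higher (66.7%, against 11.6% of all tested genes) and none lower (against 20.3%). Their median log2 fold change was 0.53. Their summed level was 481 and 488 CPM in KO libraries and 334 and 338 CPM in WT libraries, with no marker at 0. Cd68 had 49.4 and 40.3 CPM in KO and 20.1 and 20.6 CPM in WT libraries, and Lyz2 had 30.9 and 31.9 CPM in KO and 15.1 and 17.0 CPM in WT libraries. C1qc and Laptm5 were called higher at 1.0 ± 0.12 and 0.77 ± 0.11. Of 9 tested T and NK cell markers 2 were called higher (22.2%). The summed level of the 12 markers was 26.8 and 25.6 CPM in KO libraries and 21.5 and 22.2 CPM in WT libraries. For 6 dendritic cell markers, of which 2 were called higher (33.3%), the sums were 25.3 and 27.5 CPM in KO and 22.4 and 24.5 CPM in WT libraries. None of 5 B cell markers was called by edgeR (sums of 5.31 and 4.94 CPM in KO and 3.24 and 4.36 CPM in WT libraries), and of the 6 neutrophil markers Mmp8 was called higher, with sums of 3.45 and 2.71 CPM in KO and 1.59 and 1.13 CPM in WT libraries. Outside macrophages most of these markers lay under 5 times background, namely 9 of 12 for T and NK cells, 5 of 5 for B cells, 3 of 6 for dendritic cells and 6 of 6 for neutrophils, a range in which 17.8% of all tested genes were called higher. Klrb1c, Siglech, Mmp8 and Itgax, all called higher, were at 0.899, 0.939, 1.66 and 2.49 times background. The filter on low counts can be passed through the 2 KO libraries alone. Klrb1c had 12 and 12 reads in KO and 2 and 5 in WT libraries. Siglech had 9 and 18 in KO and 5 and 5 in WT, and Mmp8 16 and 15 in KO and 8 and 8 in WT. A lower call was hardly open to such genes, so these calls give no support to a direction. The 17.8% may include genes of the same kind. Cd4, also called higher, was at 9.03 times background. It had 5.5 and 4.7 CPM in KO libraries and 3.5 and 3.2 CPM in WT libraries (0.62 ± 0.20, edgeR adjusted p = 0.0232). Of the macrophage markers 3 of 21 lay under 5 times background. The part of these cells in the values of Ddx58, Tlr3, Eif2ak2, Ifih1, Irf9, Oas2, Ifit2 and Ifitm3 was not tested.

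Testis cell markers were checked in the same way. Of all tested genes 11.6% were called higher and 20.3% lower. Sertoli cell markers were called higher in 3 of 15 (20.0%) and lower in 0. Their sums were 8183 and 7861 CPM in KO libraries and 7441 and 7145 CPM in WT libraries. Endothelial markers were called higher in 2 of 12 (16.7%), with sums of 193 and 185 CPM in KO and 169 and 168 CPM in WT libraries. Leydig cell markers were called higher in 3 (33.3%) and lower in 2 (22.2%) of 9, and peritubular myoid markers in 1 each of 7 (14.3%). Markers of spermatogonia were called lower in 6 of 10 and those of pachytene spermatocytes in 14 of 14, so that libraries labelled testis held both somatic and germ cell RNA in both genotypes. Whether the lower Dhx58, Irf3 and Bst2 go with the lower share of spermatocyte RNA was not tested.

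The deposited counts also cover the 3000 bases upstream of genes, where exosome loss is known to stabilise short transcripts in cultured cells. A region was listed for 22 of the 34 genes, and none of these regions held an exon of another gene. On the strand of the gene, regions held 2 to 29 reads, with medians of 10 and 13 reads in KO libraries and 11 and 11.5 in WT libraries. Background was 9.04 and 10.2 reads per region in KO libraries and 8.11 and 7.59 in WT libraries, so that the regions were little above it.

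None of the 20 sense regions tested was called by edgeR, against 0.0166% of all tested sense regions called higher and 0% lower. The count over all sense regions depended on the fit. With the replicate block 1267 of 18087 were higher and 41 lower, and without the filter 1094 of 28311 were higher and 31 lower. Both of these fits also called the region before Ifit3 higher. DESeq2 called 9 of 1255 higher and 13 lower. Only 2 of 18344 were higher and 57 lower with the library sizes of the upstream table. At an unadjusted p under 0.05 there were 5 of the 20 in the fit reported, all higher, where 29.2% of all regions were. The filter on low counts can be passed through 2 libraries, so a region could enter the test through its KO libraries alone. The 5, the 29.2% and the medians include such regions and give no support to a direction. DESeq2 gave an adjusted p to 1 region and called none. The median log2 fold change of the 20 was 0.78, compared with 0.90 over 18087 sense regions, and both KO libraries lay above both WT libraries in 16 of 22 regions (53.4% of all regions). The smallest adjusted p was that of the region before Ifit3, with 15 and 19 reads in KO libraries and 8 and 5 in WT libraries (2.13 ± 0.60, edgeR adjusted p = 0.0926).

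On the opposite strand 13 regions were tested and none was called by edgeR, against 8.56% of all tested antisense regions called higher and 0.0875% lower. At an unadjusted p under 0.05 there were 6, where 36.7% of all regions were, and DESeq2 called none of 6. Here too a region could pass the filter through its KO libraries alone, so these counts give no support to a direction. The counts at an unadjusted p under 0.05 changed with the library sizes of the upstream table in place of those of the gene table. They were then 0 antisense and 2 sense regions in place of 6 and 5, and of the 2 sense regions only 1 was higher. Of all antisense regions 37 were then called higher and 125 lower, in place of 1565 and 16, so that the direction of upstream regions in general rests on the scaling to gene reads. The median was 1.12, against 0.99 over 18281 antisense regions, and KO libraries lay above WT libraries in 11 of 22 (57.5% of all regions). The region before Samhd1, on chromosome 2 from 157135266 to 157138265, had 19 and 19 antisense reads in KO libraries and 11 and 8 in WT libraries (1.76 ± 0.56, edgeR adjusted p = 0.0574). Scaled to gene reads, the medians of these genes' regions on both strands were close to those of upstream regions in general.

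**Figure D5:**
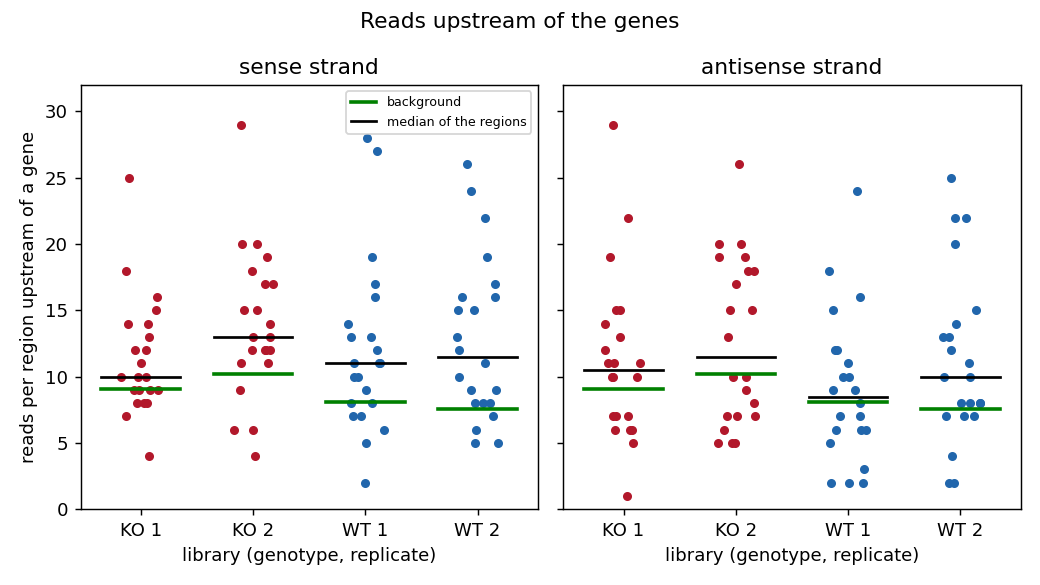
Reads in each of the 22 regions of 3000 bases upstream of the genes, on the strand of the gene (left) and on the opposite strand (right), in KO and WT libraries that are not scaled for depth. Black lines mark the median region and green lines the background per region, 9.04 and 10.2 reads in KO and 8.11 and 7.59 in WT libraries. The medians lie near the background in every library on both strands.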

How the data were processed

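Per the file headers, the authors' deposited values are raw counts of reads, made with featureCounts 1.6.4 on the GENCODE M18 annotation, per gene by exons on the gene's strand, and per region upstream of genes on either strand. Per the submitters' processing notes, cutadapt and HISAT2 were used with build GRCm38.p5. Of 54232 genes, 99.72% had a symbol in GENCODE M21.

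The tests used edgeR 4.0.16 (R 4.3.3; filterByExpr, TMM, robust quasi-likelihood fit on genotype, Benjamini-Hochberg adjustment over all features, threshold 0.05) and checked on simulated counts. Upstream regions used the library sizes and TMM factors of the gene table. TMM factors were 1.03 and 1.07 in KO and 0.955 and 0.943 in WT replicates 1 and 2. Background is the trimmed mean (0.25 dropped at each end) of reads in 14248 upstream regions of untested autosomal genes, times gene length. Intervals of the fit reflect 2 libraries per group, and replicates differed by more than counting error (chi-square per degree of freedom 5.72 in KO and 4.98 in WT).

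The 34 genes and all lists were chosen with earlier results of these data known. By rule, values per library are given for every gene called, for the 4 most abundant not called, and as a range for those under 5 times background in all libraries. Values of other genes of the 34 were added because their roles help the account. Of each other list, up to 4 called genes with the smallest adjusted p are named, of which 1 gene is not reported here. Alternatives were DESeq2 1.42.0, other scalings, filters and background subtractions, the replicate block and leaving out each library.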

Additional observations from a re-analysis of the deposited data

How the results depend on the processing

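Dhx58 and Irf3 were called lower in all 13 alternatives, and each of the 11 called genes kept its direction in every alternative that gave it a value. Of the 34 genes, 8 were called higher in the fit reported, 3 with DESeq2, 3 with scaling to Sertoli cell genes, 3 without a filter on low counts, 7 with median-of-ratios scaling and with background subtracted on the library scale as counted, 8 among genes at 5 times background or more tested alone, 11 with a filter of 1 CPM in 2 libraries, 12 with background subtracted and TMM computed anew, and 2 to 5 with any 1 library left out. Those called lower numbered 2 or 3 throughout. Of all tested genes, 2906 were called higher, 1008 with DESeq2, 1901 with Sertoli scaling, 1937 without the filter, 1546 among genes at 5 times background or more tested alone, 1197 with background subtracted on the library scale as counted, and 1324 to 2429 with 1 library left out. Those called higher numbered 2786 with median-of-ratios scaling and 2495 with background subtracted and TMM computed anew. They rose to 3323 with a filter of 1 CPM in 2 libraries and to 3361 with the replicate block. Genes called lower were between 3407 and 7077. The cause of these shifts was not tested.

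For upstream regions of the 34 genes, where none was called, the fit without the filter called 1 sense and 3 antisense regions higher, and leaving out 1 library gave 0 to 2 sense and 0 to 6 antisense. With the library sizes of the upstream table none was called. DESeq2 gave an adjusted p to few of the regions of the 34 genes.

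The labels do not say whether the replicate numbers pair the samples. The differences between replicates 1 and 2 correlated at 0.0468 between KO and WT over 16633 genes. With 2 pairs this value cannot decide whether the samples were paired. With the replicate block 10 of the 34 genes were called higher and 3 lower, with 3361 higher and 5469 lower of all 25076 tested genes. In that fit 1 sense and 1 antisense upstream region of the 34 genes were higher. Of all tested regions, 1267 of 18087 sense and 2652 of 18281 antisense regions were then higher.

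The direction turned round only in genes that were not called. Irf1 reached 0.017 and Stat2 0.061 with background subtracted and TMM computed anew, and Stat2 0.034 with a filter of 1 CPM in 2 libraries. Oas3 reached -0.050, Isg15 -0.015, Mx2 -0.29 and Xaf1 -0.045 with background subtracted on the library scale as counted, and Mx2 -0.16 with TMM computed anew. With Sertoli scaling Oasl2 had -0.027, Isg15 -0.094, Mx2 -0.075, Xaf1 -0.10, Ifi27 -0.035, Adar -0.0092 and Samhd1 -0.088. Without the filter Isg15 had -0.043, Mx2 -0.024, Xaf1 -0.053 and Samhd1 -0.036. Xaf1 had -0.0038 with DESeq2 and -0.0026 with median-of-ratios scaling. With 1 library left out, values ran from -0.23 to 0.063 for Stat2, from -0.49 to 0.27 for Oas1a, from -0.0075 to 0.15 for Oasl2 and from -0.75 to 0.094 for Ifit3. They ran from -0.032 to 0.028 for Isg15, from -0.42 to 0.35 for Mx2, from -0.10 to 0.078 for Xaf1, from -0.098 to 0.28 for Ifi35, from -0.024 to 0.16 for Adar and from -0.17 to 0.14 for Samhd1.

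Depth limits the low genes most: with 13 to 56 reads per library, Oas1a, Oas2, Oas3, Ifit3, Mx1 and Zbp1 have standard errors of 0.32 to 0.45 on the log2 scale.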
